A study of Mus musculus with 8 samples.

Results

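The Hoxb6-high libraries are 2 of the 8 mouse intestine RNA-seq libraries of this series, and they were chosen by their own measured level of Hoxb6, a homeobox transcription factor gene of the Hoxb cluster. A library belongs to the set when its Hoxb6 FPKM (a level corrected for sequencing depth and for the length of the gene) is above 20. Klebsiella mouse 3 had 40.2 FPKM and Lactobacillus mouse 2 had 45.2 FPKM, while the other 6 libraries ran from 1.16 to 3.87 FPKM with a median of 2.67 FPKM. The value just inside the threshold was thus 40.2 FPKM and the value just outside it was 3.87 FPKM, in Klebsiella mouse 2. Hoxb6 made the split, so it enters no test.

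All 8 mice were of the C57BL/6 strain. The labels name 4 of them Klebsiella recipients and the other 4 Lactobacillus recipients, and each mouse gave 1 library made from total RNA of frozen intestine. One library of the Hoxb6-high set came from each recipient group. No source used here gives their age, what they received beyond these names, an untreated control or the segment of intestine. Nothing in the labels separates the Hoxb6-high libraries from the others, so the split is a measured one and not a treatment.

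Hox genes lie in 4 clusters, and the part of a cluster that is active in a cell reflects the position of that cell along the body axis. The gut keeps such a code into adult life, in its connective tissue and in part of its epithelium. Along the colon, the segment next to the caecum and the segment next to the rectum differ in Hox genes, in mucus, in ion and water transport and in the enzymes that handle compounds from the lumen. Bile acids are taken up mainly in the last part of the small intestine, through an apical transporter and a basolateral exporter.

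The libraries carried colon transcripts. Car4, a membrane carbonic anhydrase of the colon surface, ranged from 203 to 1517 FPKM over the 8 libraries, and Lypd8, a secreted protein of colon epithelium, from 1654 to 4973 FPKM. Of the defining genes of the small-intestinal absorptive cell, Apoa4 was at most 0.0349 FPKM, Slc2a2 at most 0.0649 FPKM, Lct at most 0.144 FPKM, Fabp1 at most 0.444 FPKM and Sis at most 0.695 FPKM in any library. Alpha-defensins of Paneth cells were at or near 0, with Defa24 at most 0.146 FPKM and Defa30 at most 0.116 FPKM. Other members of both lists were detected. The small-intestinal list, with Fabp2 and Alpi (values below), summed to 482 and 298.5 FPKM in Klebsiella mouse 3 and Lactobacillus mouse 2, against 183 to 321 FPKM. The Paneth cell list, with Ang4, summed to 536.5 and 105.5 FPKM against 276 to 1997 FPKM. Of the 13 small-intestinal genes that passed the filter on low values, 8 had a positive and 5 a negative difference between the Hoxb6-high and the other libraries, with a median of 0.07, and 0 were called. A proximal position could not be checked against a label, and the libraries are therefore named here by their Hoxb6 level.

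Sequencing did not separate the set. Reads after the authors' filter ran from 40455910 to 55447220 per library, 41676838 of them in Klebsiella mouse 3 and 51749632 in Lactobacillus mouse 2. Mapped reads were 95.99% and 95.82% in these 2 libraries and 95.04% to 96.59% in the other 6. Over the genes tested, Klebsiella mouse 3 correlated with Lactobacillus mouse 2 at r = 0.974 on the log2 scale. With each of the other 6 libraries, Klebsiella mouse 3 correlated at 0.952 to 0.966 and Lactobacillus mouse 2 at 0.961 to 0.970. Such a value was not particular to this pair, since Lactobacillus mouse 1 correlated at 0.976 with Klebsiella mouse 1 and at 0.974 with Klebsiella mouse 2 and with Klebsiella mouse 4. These correlations run across genes, which are not independent, and carry no test.

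Every gene with a mean of at least 0.5 FPKM, Hoxb6 left out, was compared on the log2(FPKM + 0.5) scale with recipient group as a covariate. At an adjusted p under 0.05 (limma, Benjamini-Hochberg), 19 of 16864 genes were higher in the Hoxb6-high libraries, which is 0.113% of the genes tested, and 0 were lower, which is 0%. At an unadjusted p under 0.05, 650 genes were higher (3.85%) and 262 were lower (1.55%). A count model with precision weights (limma's voom on recovered reads) called 52 higher and 1 lower, all 19 among them. Of genes given below without a call in the main fit, voom called Hoxb3, Tbx3, Isx, Reg3b, Cyp2c65 and Ces1g, among others. Because the split was read from the same table, an adjusted p here describes how tightly a gene followed the split in these 8 libraries. It is not the test of a designed comparison. The filter took the mean over all 8 libraries, and 8 of the 19 (Osr2, Slc51a, Abca12, Defb37, Vnn1, Acaa1b, Nts and Slc10a2) had a mean under 0.5 FPKM in the other 6. They entered only through the libraries in which they were high, and so had to differ. With no filter 28 genes were called, 13 of the 19 among them. Both Hoxb6-high libraries lay above all others for 874 genes (5.18%) and below all others for 299 (1.77%). All 19 called genes were among the 874, and all 19 were also past 2-fold within each recipient group. The same libraries gave the calls, so this describes the 19 and is no separate check. The median log2 difference over all genes was 0.04.

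**Figure D1:**
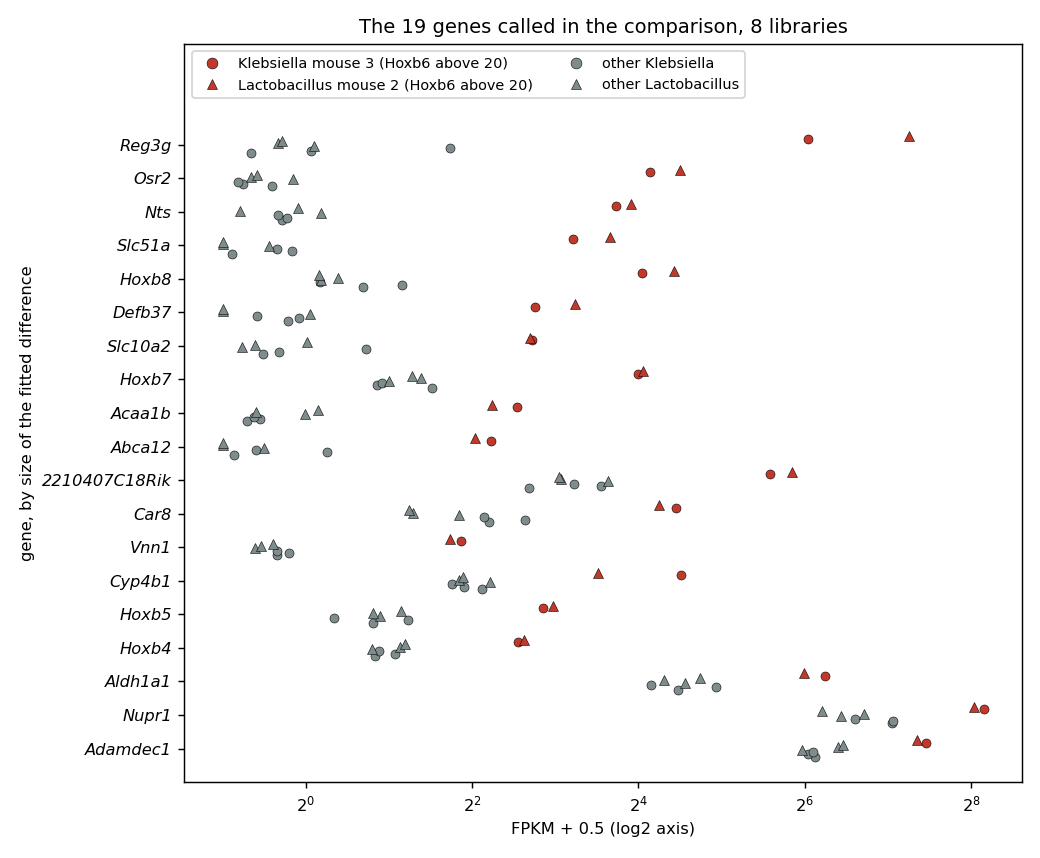
FPKM + 0.5 on a log2 axis for each of the 19 called genes in each of the 8 libraries, ordered by the fitted difference, with red points for the 2 Hoxb6-high libraries and grey points for the other 6 (circles Klebsiella, triangles Lactobacillus). In every gene shown both red points lie to the right of all grey points, from Reg3g at a log2 difference of 6.55 to Adamdec1 at 1.22.

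Hoxb4, Hoxb5, Hoxb7 and Hoxb8, the neighbours of Hoxb6 on chromosome 11, were all called. Hoxb8 was 15.9 FPKM in Klebsiella mouse 3 and 21.04 FPKM in Lactobacillus mouse 2, against 0.617 to 1.72 FPKM (median 0.723) in the others. Its log2 difference was 3.78 ± 0.30 (SE, adjusted p = 0.0043). Hoxb7 stood at 15.5 and 16.2 FPKM against 1.31 to 2.36 FPKM (median 1.71), a log2 difference of 2.87 ± 0.22 (adjusted p = 0.0043). The groups were far apart in both genes, and the 2 Hoxb6-high libraries were close to each other. Hoxb5 had 6.71 and 7.32 FPKM against 0.763 to 1.85 FPKM, and Hoxb4 had 5.38 and 5.67 FPKM against 1.24 to 1.78 FPKM. Their log2 differences were 2.04 ± 0.25 (adjusted p = 0.0378) and 1.60 ± 0.18 (adjusted p = 0.0315). Neighbouring Hox genes share regulatory DNA with Hoxb6, so these 4 are not independent of the gene that made the split. Hoxb5 and Hoxb6 overlap the antisense gene Hoxb5os, and since no source used here says whether the counting used strand, their reads cannot be told apart from its reads.

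Outside the stretch from Hoxb4 to Hoxb8 no Hoxb gene was called in the main fit. Voom on recovered reads did call Hoxb3 (log2 difference 1.99, adjusted p = 0.0453), so the edge of the stretch depended on the tool. On one side, Hoxb3 (4.12 and 3.30 FPKM against 0.538 to 1.33 FPKM) had a log2 difference of 1.56 ± 0.25 and an adjusted p of 0.124, and Hoxb2 was under the filter, at 0.824 and 0.276 FPKM against 0.0726 to 0.306 FPKM. On the other side, Hoxb9 overlapped between the groups (34.7 and 35.5 FPKM against 21.9 to 36.9 FPKM, log2 difference 0.42 ± 0.18, adjusted p = 0.923). Hoxb13, the most posterior gene of the cluster, was 81.0 and 119 FPKM against 107 to 237 FPKM (log2 difference −0.62 ± 0.17, unadjusted p = 0.00701, adjusted p = 0.542). Its groups overlapped, Lactobacillus mouse 2 being above the lowest of the others. Read along the cluster, the fitted value thus went up from Hoxb3 to Hoxb8, was 0.42 in Hoxb9 and negative in Hoxb13. The steps between neighbours were not tested.

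Of the Hox list without Hoxb6, 23 genes passed the filter on low values and 15, all Hoxc genes in the list among them, did not. Of the 23, 4 were called higher and 0 lower, beside 0.113% and 0% of all genes. At an unadjusted p under 0.05, 6 were higher and 1 lower, beside 3.85% and 1.55% of all genes. The Hoxa genes tested lay between −0.25 (Hoxa13) and 0.49 (Hoxa4) on the log2 difference scale, and none was called. Hoxc4 and Hoxc6, both under the filter, were 0.568 and 0.443 FPKM against 0.152 to 0.33 FPKM and 0.305 and 0.302 FPKM against 0 to 0.063 FPKM, above all others but low in every library. Hoxd8 was 4.65 and 4.41 FPKM against 1.33 to 2.19 FPKM, with no overlap (log2 difference 1.18 ± 0.21, adjusted p = 0.149). Hoxd13, at the posterior end of its cluster, was 2.20 FPKM in Klebsiella mouse 3 and 19.1 FPKM in Lactobacillus mouse 2, against 3.25 to 46.3 FPKM (median 33.2). The 2 Hoxb6-high libraries were unlike each other in this gene, and the groups overlapped (log2 difference −1.49 ± 0.80, adjusted p = 0.936).

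**Figure D2:**
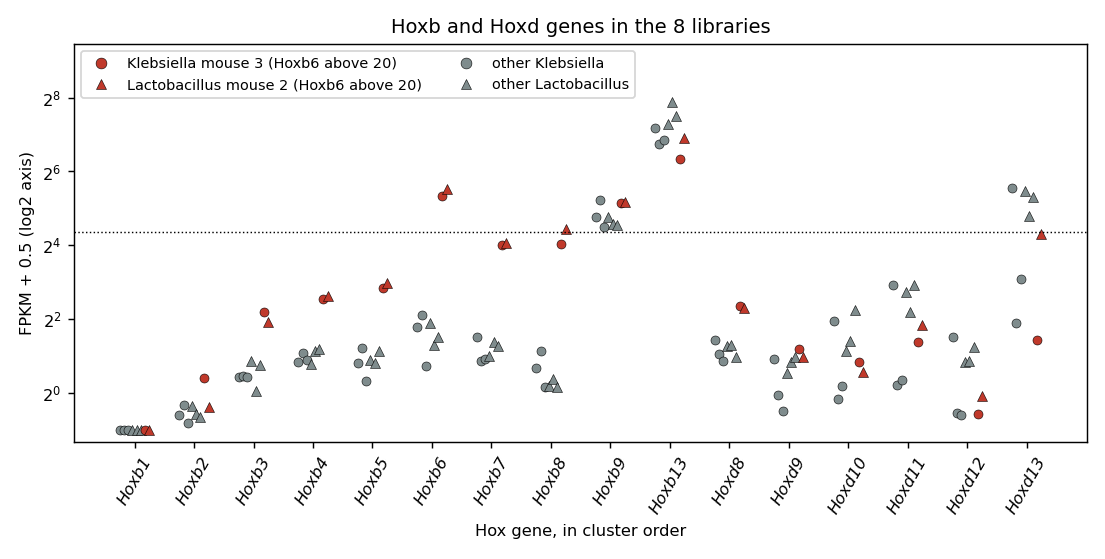
FPKM + 0.5 on a log2 axis for the Hoxb and Hoxd genes in cluster order, 1 point per library, with red for the 2 Hoxb6-high libraries, grey for the other 6 and a dotted line at the Hoxb6 threshold of 20 FPKM. The red points separate from the grey ones from Hoxb3 to Hoxb8 and in Hoxd8, and mix with them in Hoxb9, Hoxb13 and Hoxd9 to Hoxd13 (Hoxd13 at 2.20 and 19.1 FPKM in the red libraries).

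The stretches of 250 bases before the starts of Hoxb8 and Hoxb4 are shown because these called genes mark the 2 sides of Hoxb6. They come from RefSeq on GRCm38.p6, which held an entry for 12 of the 19 called genes. Hoxb8 is chr11:96281655-96281904 and Hoxb4 is chr11:96318017-96318266, both on the plus strand. Capitals mark TTTAT or its reverse complement ATAAA in Hoxb8, the core bound by caudal-type (Cdx) factors, and AGGTCA or its reverse complement TGACCT in Hoxb4, the half-site bound by nuclear receptors.
Hoxb8: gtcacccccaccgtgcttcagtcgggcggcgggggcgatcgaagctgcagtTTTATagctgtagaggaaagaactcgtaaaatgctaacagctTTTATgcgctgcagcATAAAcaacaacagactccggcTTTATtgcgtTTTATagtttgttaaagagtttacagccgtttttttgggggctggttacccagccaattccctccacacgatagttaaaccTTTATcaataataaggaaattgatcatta
Hoxb4: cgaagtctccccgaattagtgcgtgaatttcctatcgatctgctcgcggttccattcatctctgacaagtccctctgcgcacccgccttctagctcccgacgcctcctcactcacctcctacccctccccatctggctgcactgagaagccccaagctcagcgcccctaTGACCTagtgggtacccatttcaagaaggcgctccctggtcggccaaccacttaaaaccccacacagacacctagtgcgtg
Hoxb8 held 6 matches to TTTAT, 5 as written and 1 on the other strand. Such a core occurred at least once in 37.3% of 32851 stretches of this length and at least 6 times in 0.39% of them. It also forms part of TATAAA, the TATA box. Among the 12 called genes with an entry, 6 held it. Hoxb4 held 1 match to AGGTCA, which occurred in 4607 of the 32851 stretches and in 2 of the 12. A match is a run of letters and no measured binding.

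Of 28 other transcription factors of gut regions tested, 1 was called higher and 0 lower, beside 0.113% of all genes called higher. Osr2, a zinc-finger factor named for odd-skipped in the fly, was 17.1 FPKM in Klebsiella mouse 3 and 22.2 FPKM in Lactobacillus mouse 2, while the other 6 ran from 0.0669 to 0.399 FPKM with a median of 0.15 FPKM. In reads this was 480 and 756 against 2 to 11. The log2 difference of 4.88 ± 0.23 had the smallest adjusted p of all genes (0.000353), and Osr2 was called under each of the 21 alternatives tried. Osr2 averaged 0.186 FPKM in the other 6 libraries and passed the filter only through the 2 Hoxb6-high ones. It thus had to differ, and its p and its calls are a description. Cdx2, the caudal-type factor that sets intestinal identity, was 93.8 and 62.4 FPKM against 24.5 to 60.5 FPKM, apart by a small margin (log2 difference 0.85 ± 0.21, adjusted p = 0.419). Klf4 and Hnf4a, the listed factors of highest mean level, overlapped between the groups, at 390 and 406 FPKM against 367 to 581 FPKM and at 372 and 340 FPKM against 341 to 544 FPKM (adjusted p = 0.939 and 0.936). Esrrg, an orphan nuclear receptor, was 3.73 and 3.63 FPKM against 4.55 to 6.55 FPKM (log2 difference −0.55 ± 0.15, adjusted p = 0.531). Isx and Tbx3 were chosen after their values were seen. Isx, a homeobox factor that represses vitamin A uptake genes, was 53.4 and 28.0 FPKM against 1.09 to 14.99 FPKM (log2 difference 2.97 ± 0.59, adjusted p = 0.234). Tbx3, a T-box factor, was 10.2 and 8.99 FPKM against 3.36 to 4.63 FPKM (log2 difference 1.12 ± 0.15, adjusted p = 0.069).

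Bile acid transport showed a pair of rises. Slc51a encodes the alpha subunit of the basolateral exporter of bile acids. It was 8.78 FPKM in Klebsiella mouse 3 and 12.1 FPKM in Lactobacillus mouse 2, against 0 to 0.39 FPKM in the others (median 0.137), a log2 difference of 4.08 ± 0.30 (adjusted p = 0.0043). Lactobacillus mouse 3 and Lactobacillus mouse 4 were listed at 0. Slc51a overlaps Pcyt1a, and its reads could be shared with that gene. Slc10a2, the apical transporter that takes bile acids up, was 6.09 and 6.00 FPKM against 0.0902 to 1.15 FPKM (median 0.25). It is a marker that came with the split and is 1 of the 19, so its levels are a description. Of the 9 members of this list tested, 2 were called higher and 0 lower, beside 0.113% of all genes called higher. These 2, Slc51a and Slc10a2, passed the filter only through the Hoxb6-high libraries and had to differ, so the count is a description. The median log2 difference of the list was 0.41 against 0.04 over all genes. The 3 members that follow were picked with their values known. Slc51b, the partner subunit of Slc51a, overlapped between the groups at 6.05 and 10.4 FPKM against 2.41 to 8.13 FPKM (log2 difference 0.65 ± 0.41, adjusted p = 0.936). Fabp6, the bile acid binding protein of the cytosol, was 3.58 and 11.9 FPKM against 3.04 to 12.0 FPKM (log2 difference −0.21 ± 0.57, adjusted p = 0.975), and this sign turned under 3 alternatives. Nr1h4, the bile acid receptor FXR, was 32.9 and 40.6 FPKM against 16.8 to 28.1 FPKM (log2 difference 0.77 ± 0.20, adjusted p = 0.426). The levels of Slc51a did not overlap between the groups, those of its partner Slc51b did, and so did those of Fabp6.

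The stretch before Slc51a, the bile acid gene of the larger difference, is chr16:32487880-32488129 on the minus strand, and it held 1 match to the nuclear receptor half-site, in capitals.
Slc51a: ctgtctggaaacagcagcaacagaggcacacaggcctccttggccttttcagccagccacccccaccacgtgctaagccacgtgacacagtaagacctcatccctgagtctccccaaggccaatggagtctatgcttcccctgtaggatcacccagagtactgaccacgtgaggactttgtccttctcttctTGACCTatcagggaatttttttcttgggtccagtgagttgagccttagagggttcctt

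Among genes of enteroendocrine cells, the scattered epithelial cells that secrete peptide hormones, 1 of 24 tested was called, beside 0.113% of all genes. Nts, which encodes neurotensin, was 12.8 FPKM in Klebsiella mouse 3 and 14.5 FPKM in Lactobacillus mouse 2, against 0.0787 to 0.637 FPKM (median 0.339). The log2 difference was 4.08 ± 0.27 (adjusted p = 0.00269). Nts averaged 0.354 FPKM in the others, passed the filter only through the Hoxb6-high libraries and so had to differ. At an unadjusted p under 0.05, 8 of the 24 were higher and 0 lower, beside 3.85% of all genes higher. Chga, Chgb, Sct and Sst were chosen after their values were seen. Chga, the granule protein chromogranin A, was 71.2 and 65.9 FPKM against 36.2 to 50.2 FPKM (log2 difference 0.66 ± 0.13, adjusted p = 0.223). Chromogranin B (Chgb) was 93.6 and 79.6 FPKM against 49.9 to 70.0 FPKM (log2 difference 0.63 ± 0.13, adjusted p = 0.266). Secretin (Sct) was 25.1 and 17.7 FPKM against 2.91 to 7.41 FPKM (log2 difference 2.07 ± 0.34, adjusted p = 0.127). Somatostatin (Sst) was 67.2 and 68.9 FPKM against 17.8 to 49.6 FPKM (log2 difference 1.13 ± 0.27, adjusted p = 0.378). Insl5 and Pyy, distal colon hormones and the members of highest mean level, did not separate the groups. Pyy was 167 and 192 FPKM against 158 to 267 FPKM (log2 difference −0.11 ± 0.18, adjusted p = 0.948), and Insl5 was 220 and 297 FPKM against 198 to 403 FPKM (log2 difference −0.12 ± 0.20, adjusted p = 0.948). The sign of the Pyy value turned when the log2 Hoxd13 level was added as a covariate.

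Reg3b and Reg3g, neighbouring genes of secreted defence proteins, had the 2 largest fitted differences of all genes tested. Reg3g, a lectin that kills Gram-positive bacteria, was 65.2 FPKM in Klebsiella mouse 3 and 152 FPKM in Lactobacillus mouse 2. The other 6 ran from 0.133 to 2.82 FPKM with a median of 0.432 FPKM, and the log2 difference was 6.55 ± 0.61 (adjusted p = 0.0121). Reg3b, chosen after its values were seen, was 591 and 1469 FPKM against 0.176 to 13.8 FPKM (log2 difference 8.89 ± 1.42, adjusted p = 0.117). Klebsiella mouse 4 was the highest of the other libraries for both. Reg3b and Reg3g are alike in sequence, so reads of one could be counted to the other. Defb37, a beta-defensin, was 6.27 and 8.90 FPKM against 0 to 0.532 FPKM, which was 36 and 62 reads against 0 to 3 (log2 difference 3.47 ± 0.35, adjusted p = 0.0143). Defb37 passed the filter only through the Hoxb6-high libraries and so had to differ.

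The stretch before Reg3g is shown because that gene had the largest called difference. It is chr6:78468875-78469124 on the minus strand, with TTTAT or ATAAA in capitals.
Reg3g: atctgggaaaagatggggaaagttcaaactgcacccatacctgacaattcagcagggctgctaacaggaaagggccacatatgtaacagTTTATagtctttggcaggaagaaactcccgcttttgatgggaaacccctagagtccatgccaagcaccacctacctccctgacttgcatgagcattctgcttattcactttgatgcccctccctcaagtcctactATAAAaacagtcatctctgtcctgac
It held 2 matches, 1 on each strand.

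The rest of the defence list did not follow. Of 26 tested, 1 was called higher and 0 lower, beside 0.113% of all genes called higher. At an unadjusted p under 0.05 (limma), 2 were higher and 4 lower, beside 3.85% and 1.55% of all genes. The median log2 difference was −0.09, and 12 members were positive and 14 negative. Lypd8, which holds flagellated bacteria away from the epithelium, was 2696 and 3019 FPKM against 1654 to 4973 FPKM. Mptx1, a mucosal pentraxin, was below all others in both libraries, at 3493 and 3860 FPKM against 4057 to 14988 FPKM (log2 difference −1.23 ± 0.46, adjusted p = 0.814). Ang4, a marker of Paneth cells that goblet cells also make, was 515 and 79.0 FPKM against 259 to 1935 FPKM (log2 difference −1.94 ± 0.84, adjusted p = 0.92).

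Car8 was the called member of the carbonic anhydrase family, whose active members interconvert carbon dioxide and bicarbonate and whose member Car8 lacks that activity. It was 21.3 FPKM in Klebsiella mouse 3 and 18.5 FPKM in Lactobacillus mouse 2 against 1.86 to 5.70 FPKM (median 3.51), a log2 difference of 2.46 ± 0.25 (adjusted p = 0.0137), and it overlaps the gene models Gm11799 and Gm25355. Car1, the abundant cytosolic enzyme of colon epithelium, entered the fit and was not called, but it marked the split, so its levels are a description. It was 2342 and 2947 FPKM against 195 to 836 FPKM (median 416), with no overlap. Of the 12 members tested, Car1 included, 1 was called higher and 0 lower, beside 0.113% of all genes called higher. Car12 (28.7 and 20.5 FPKM against 3.33 to 16.4 FPKM, adjusted p = 0.378) and Car13 (11.4 and 9.92 FPKM against 6.23 to 8.47 FPKM, adjusted p = 0.423) were chosen after their values were seen. Car2 and Car4, the next most abundant members, overlapped between the groups, at 723 and 835 FPKM against 627 to 1248 FPKM and at 451 and 451 FPKM against 203 to 1517 FPKM.

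Enzymes that handle foreign and fatty compounds were among the remaining called genes. Cyp4b1, a cytochrome P450 that oxidises fatty acids and plant toxins, was 22.2 FPKM in Klebsiella mouse 3 and 10.9 FPKM in Lactobacillus mouse 2 against 2.87 to 4.15 FPKM (log2 difference 2.06 ± 0.25, adjusted p = 0.0378). Aldh1a1, which makes retinoic acid from retinal, was 75.3 and 63.1 FPKM against 17.2 to 30.1 FPKM (log2 difference 1.59 ± 0.21, adjusted p = 0.0496). Both stood clear of the others in each recipient group. Aldh1a1 overlaps 2 gene models and was also the 1 called gene of 25 tested in retinoid metabolism, where the median log2 difference was 0.02. Of 44 xenobiotic enzymes tested, these 2 were called higher and 0 lower, beside 0.113% of all genes called higher. The median log2 difference of the list was 0.36 against 0.04 over all genes, 38 of 44 members were positive, and 16 were higher at an unadjusted p under 0.05, beside 3.85% of all genes. The members that follow were chosen after their values were seen, and each belongs to a family of similar genes whose reads the counting could have split. Cyp2c65 was 58.1 and 45.2 FPKM against 1.82 to 12.4 FPKM (log2 difference 3.13 ± 0.50, adjusted p = 0.117). The carboxylesterase Ces1g was 21.2 and 33.3 FPKM against 2.42 to 6.21 FPKM (log2 difference 2.60 ± 0.37, adjusted p = 0.0802). The glucuronosyltransferase Ugt2b5 was 10.3 and 9.96 FPKM against 0 to 3.33 FPKM (log2 difference 3.06 ± 0.57, adjusted p = 0.182).

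In lipid handling, Acaa1b, a thiolase of peroxisomes, was 5.29 and 4.23 FPKM against 0.112 to 0.603 FPKM (log2 difference 2.78 ± 0.28, adjusted p = 0.0137), and it overlaps Dlec1. Vnn1, a pantetheinase that releases cysteamine, was 3.15 and 2.82 FPKM against 0.155 to 0.366 FPKM (log2 difference 2.21 ± 0.19, adjusted p = 0.00825). Abca12, a lipid transporter best known from skin, was 4.19 and 3.59 FPKM against 0 to 0.695 FPKM (log2 difference 2.75 ± 0.33, adjusted p = 0.0356). Acaa1b, Vnn1 and Abca12 passed the filter only through the Hoxb6-high libraries and so had to differ. These genes were low in every library, and the recovered reads behind the 2 high values of Acaa1b were 98 and 95. The list of lipid handling and fatty acid oxidation, which holds none of them, had 0 of 27 called by limma in either direction. At an unadjusted p under 0.05, 7 were higher and 0 lower, beside 3.85% and 1.55% of all genes. The list had 25 members positive and a median log2 difference of 0.27. Its most abundant members overlapped, Ucp2, a mitochondrial carrier, at 405 and 387 FPKM against 317 to 484 FPKM (adjusted p = 0.951) and Acadm, which oxidises medium-chain fatty acids, at 220 and 213 FPKM against 159 to 244 FPKM (adjusted p = 0.936).

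The last called genes were Nupr1, Adamdec1 and 2210407C18Rik. Nupr1, a stress-response factor, was 285 and 262 FPKM against 73.1 to 133 FPKM (log2 difference 1.42 ± 0.18, adjusted p = 0.0398). Adamdec1, a secreted metalloprotease of gut fibroblasts and macrophages, was 175 and 163 FPKM against 61.8 to 87.5 FPKM (log2 difference 1.22 ± 0.15, adjusted p = 0.0356). The gene model 2210407C18Rik was 47.6 and 56.9 FPKM against 5.94 to 11.9 FPKM (log2 difference 2.52 ± 0.24, adjusted p = 0.0137). In bulk tissue, more cells of a type and more RNA per cell cannot be told apart for any of these genes.

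Lower genes were weaker and none passed the test in the main fit. The smallest adjusted p among them was 0.117, for B3gnt7, which extends sulphated sugar chains on mucins. It was 139 FPKM in Klebsiella mouse 3 and 164 FPKM in Lactobacillus mouse 2 against 234 to 350 FPKM (log2 difference −0.97 ± 0.16), and it overlaps the antisense gene model Gm28626. Another chain-extending enzyme, B3gnt5, was 23.2 and 31.3 FPKM against 35.5 to 51.2 FPKM (log2 difference −0.68, adjusted p = 0.419), and the sialyltransferase St6galnac4 was 15.9 and 18.3 FPKM against 22.3 to 27.6 FPKM. In the other direction, the mucin-branching enzyme Gcnt3, chosen after its values were seen, was 57.3 and 36.6 FPKM against a median of 12.9 and a highest value of 21.5 FPKM (log2 difference 1.71 ± 0.29, adjusted p = 0.132). Of 28 mucin glycosylation genes tested, 0 were called in the main limma fit. Among 21 alternatives, B3gnt7 was called in 2 and Gcnt3 in 1. At an unadjusted p under 0.05, 8 of the 28 mucin glycosylation genes were higher and 3 lower, beside 3.85% and 1.55% of all genes. The most abundant of them, the sialyltransferase St6galnac6, was 516 and 515 FPKM against 498 to 626 FPKM (adjusted p = 0.939), and St3gal4, another, was 233 and 253 FPKM against 264 to 422 FPKM (log2 difference −0.44 ± 0.19, adjusted p = 0.92). S100a14, a calcium-binding protein, was 60.5 and 85.4 FPKM against 109 to 238 FPKM (log2 difference −1.13), and Tmprss2, a membrane serine protease, was 173 and 169 FPKM against 217 to 281 FPKM (log2 difference −0.48). Kcne3, a potassium channel subunit of crypts, was 148 and 166 FPKM against 183 to 245 FPKM (log2 difference −0.43). The remaining 9 genes that the naming rule gave on this side were Snord49a, Mir3109, Trim16, Ppa1, Scd1, Slc45a3, Ptpn13, Pla2g2f and Esrrg, and none was called. Snord49a and Mir3109 overlap longer genes, were listed at 0 in both Hoxb6-high libraries and had at most 9 and 12 reads in the others, so no fold is given.

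The recipient groups can be read apart, since the Klebsiella difference (Klebsiella mouse 3 minus the mean of its other 3) and the Lactobacillus difference (Lactobacillus mouse 2 minus the mean of its other 3) share no library. Past 2-fold, 450 genes were higher (2.67%) and 521 lower (3.09%) in the Klebsiella difference, and 414 were higher (2.45%) and 158 lower (0.937%) in the Lactobacillus difference. The higher lists shared 137 genes, 30.4% of the Klebsiella list and 33.1% of the Lactobacillus list. The lower lists shared 42 genes, 8.06% and 26.6% of the lists. There were 21 genes higher in the Klebsiella and lower in the Lactobacillus difference, and 76 the other way round. Across all 16864 genes the differences correlated at r = 0.180 and rho = 0.059, as a description. Several called genes had like values in both: Osr2 differed by 4.80 and 4.97, Nts by 4.01 and 4.14, Hoxb7 by 2.90 and 2.84 and Vnn1 by 2.17 and 2.25 (log2, Klebsiella then Lactobacillus). Cyp4b1 had the larger difference in the Klebsiella group, at 2.58 and 1.53. Reg3g had it in the Lactobacillus group, at 5.66 and 7.43. The main fit counts disagreement between the recipient groups as error, so calling favoured genes with like differences. Likeness among the called genes is therefore a description. Osr2, Nts and Vnn1 also passed the filter only through the Hoxb6-high libraries.

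**Figure D3:**
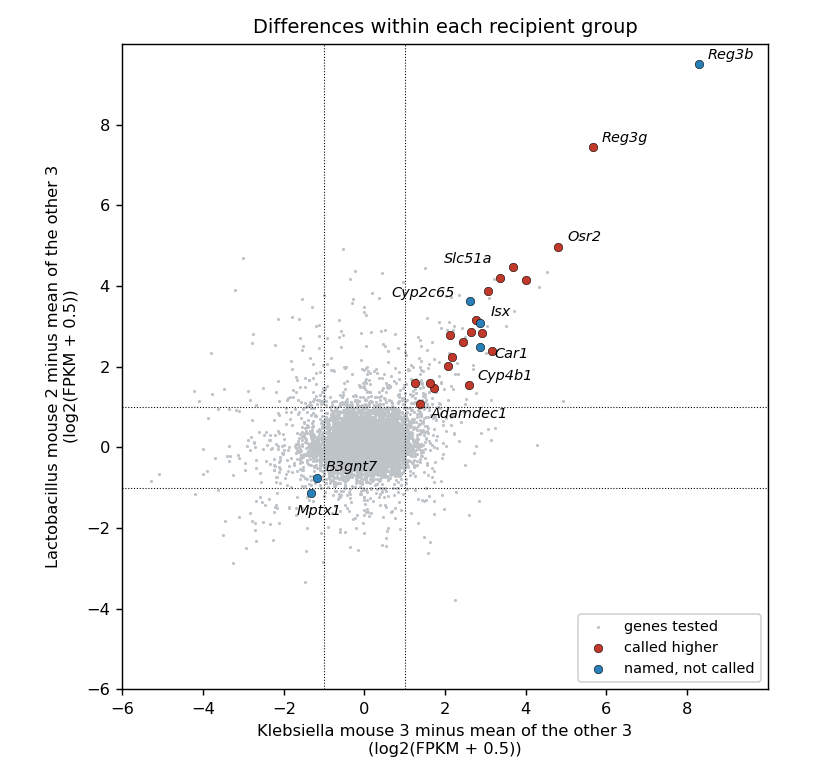
Each of the 16864 genes tested by its log2 difference within the Klebsiella group (x axis) and within the Lactobacillus group (y axis), in log2(FPKM + 0.5), with the 19 called genes in red, other named genes in blue and dotted lines at 2-fold. The called genes lie in the upper right corner beyond 2-fold on both axes, while the cloud as a whole has a weak slope (r = 0.180).

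A test of the difference between the recipient groups (the limma interaction term) called 0 genes, which is 0%, with 594 at an unadjusted p under 0.05 (3.52%) and a smallest adjusted p of 0.296. With no filter on low values it called 391. No other tool was run for it. Among the 19 called genes the smallest adjusted p of the interaction was 0.987. This test rests on 1 Hoxb6-high library in each group, and a p above the threshold does not show that the differences were equal. For the 19 called genes, the calling fit counts the interaction as error. It thus favoured genes with a small interaction, and their interaction values are a description.

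Markers of other cell types and states also differed along the split or in 1 of its libraries. All 16 T cell and intraepithelial lymphocyte genes tested were positive with a median log2 difference of 0.64, and 0 were called by limma. At an unadjusted p under 0.05, 3 of them were higher and 0 lower, beside 3.85% and 1.55% of all genes. Only Lactobacillus mouse 2 stood out. Their summed level was 109 FPKM in Lactobacillus mouse 2 and 54.8 FPKM in Klebsiella mouse 3 against 41.8 to 57.7 FPKM. All 21 enteric neuron genes tested were positive with a median of 0.56, and 0 were called (1 higher and 0 lower unadjusted). Their summed level was 224 and 259 FPKM against 101 to 205 FPKM, above all others in both libraries. The neuropeptide galanin (Gal) had the largest value among them, at 17.2 and 16.2 FPKM against 1.05 to 5.63 FPKM (log2 difference 2.19 ± 0.48, adjusted p = 0.302). Smooth muscle genes went opposite ways, with a median of 0.76 in the Klebsiella and −0.53 in the Lactobacillus difference.

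On the lower side, all 28 immediate-early genes were negative with a median log2 difference of −0.78, −1.66 in the Klebsiella and −0.11 in the Lactobacillus difference. Their summed level was 541 and 815 FPKM against 656 to 4058 FPKM. Junb was 86.2 and 119 FPKM against 105 to 822 FPKM and Fos was 47.9 and 126 FPKM against 88.4 to 806 FPKM, both lowest in Klebsiella mouse 3. All 30 cell cycle genes were negative with a median of −0.47, and their summed level of 638 and 791 FPKM lay inside the range of the others, 483 to 1160 FPKM. All 18 pancreatic acinar genes tested were negative with a median of −1.93. The enzyme gene Ctrb1 was 418 FPKM in Klebsiella mouse 2 and 112 FPKM in Lactobacillus mouse 3 and at most 2.99 FPKM in every other library. The summed level of the list was 613 and 830 FPKM in the Hoxb6-high libraries against 1055 to 2687 FPKM. The mean log2 level of the list was 6.67 and 5.25 in those 2, 0.98 to 1.84 in the other 4 libraries below the threshold, and 0.92 and 1.54 in the Hoxb6-high libraries, so apart from those 2 libraries the mean log2 levels overlapped. Without Klebsiella mouse 2 and Lactobacillus mouse 3, 6 genes were called, 4 of the 19 among them. None of the immediate-early, cell cycle or acinar genes was called by limma. At an unadjusted p under 0.05, 0 were higher and 4, 0 and 2 lower, beside 3.85% of all genes higher and 1.55% lower. The part of these markers in the 19 calls was not tested.

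**Figure D4:**
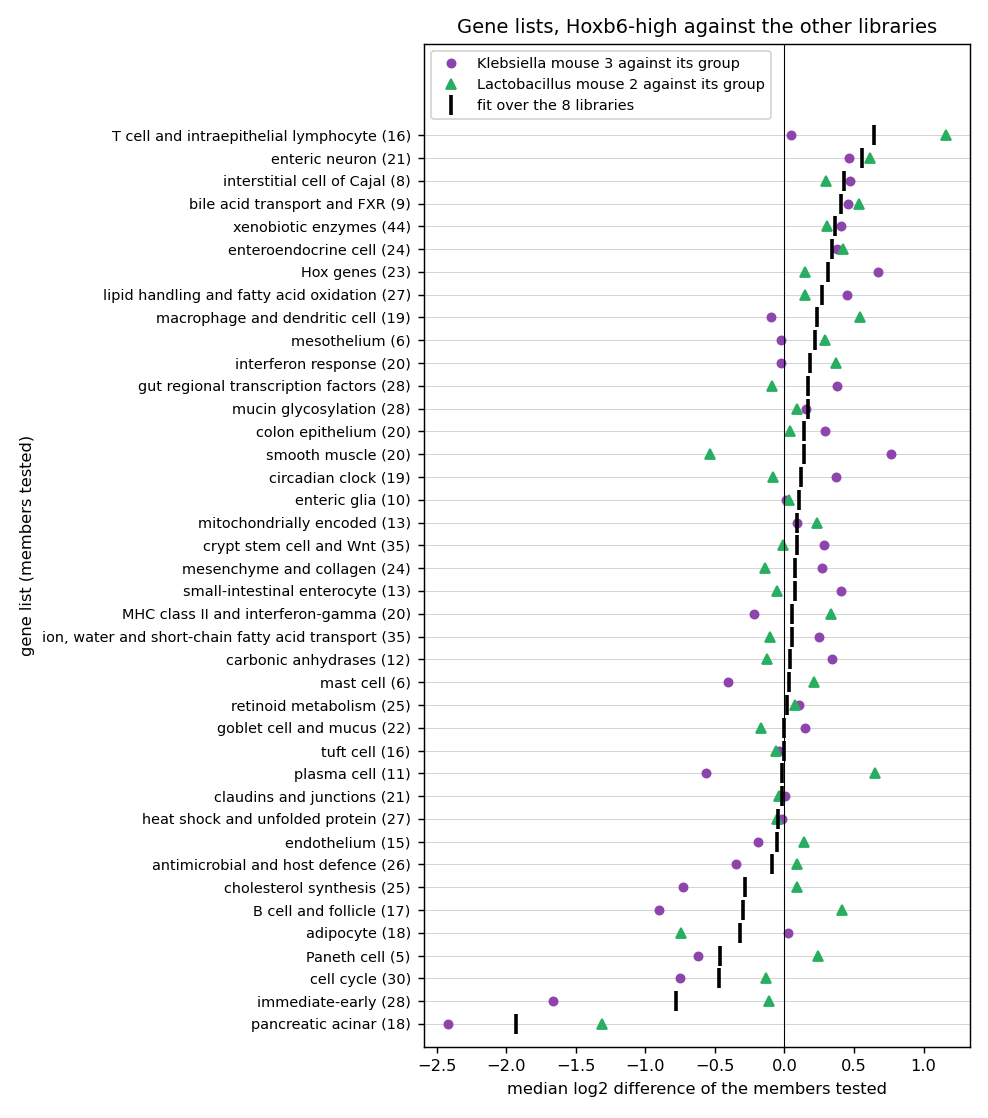
Median log2 difference of the tested members of each of 40 gene lists, with black bars for the fit over the 8 libraries, purple circles for the Klebsiella difference and green triangles for the Lactobacillus difference (number of members tested in brackets). Enteric neuron, bile acid, xenobiotic and enteroendocrine genes lie to the right of 0 for all 3 values, while T cell and smooth muscle genes differ between circle and triangle and acinar genes lie far to the left (−1.93).

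Of the 40 lists, 8 held a called gene and 32 held none. Goblet cell and mucus genes were even, with 11 of 22 positive and a median log2 difference of 0.00, and 0 were called by limma. At an unadjusted p under 0.05, 1 was higher and 4 lower. Over all genes, 3.85% were higher and 1.55% lower at that p. Clca1, a protease secreted with mucus, was 3378 FPKM in Klebsiella mouse 3 and 967 FPKM in Lactobacillus mouse 2 against 2791 to 7474 FPKM (log2 difference −1.35 ± 0.43, adjusted p = 0.68). Ion, water and short-chain fatty acid transporters had a median of 0.05 over 35 genes, with 0 called by limma and 4 higher and 2 lower unadjusted. Of these, Tmigd1, a membrane protein of mature enterocytes, was 46.8 and 27.3 FPKM against 0.934 to 8.67 FPKM (log2 difference 3.26 ± 0.72, adjusted p = 0.307), and Fxyd4, a subunit that tunes the sodium pump, was 14.3 and 43.3 FPKM against 16.2 to 199 FPKM (log2 difference −1.69 ± 0.59, adjusted p = 0.761). Both genes were picked with their values known. The small-intestinal list had 0 of 13 tested called by limma, 3 higher and 0 lower unadjusted and a median of 0.07. Its member Alpi, the intestinal alkaline phosphatase, was 5.35 and 3.18 FPKM against 0.238 to 1.49 FPKM (log2 difference 2.03 ± 0.44, adjusted p = 0.3). Fabp2, the intestinal fatty acid binding protein, was 322 and 147 FPKM against 28.9 to 172 FPKM and overlapped (log2 difference 1.48 ± 0.43, adjusted p = 0.571).

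The number of calls depended on single libraries. It was 7 without Klebsiella mouse 3 and 2 without Lactobacillus mouse 2, 4 and 1 of the 19 among them, with the lone library left in the set assumed to vary like the rest. It was 8 without Klebsiella mouse 1, 12 without Lactobacillus mouse 1, 11 without Lactobacillus mouse 3 and 12 without Lactobacillus mouse 4. All 19 genes had a positive difference under every one of the 21 alternatives that tested them. Calls were less stable than signs. The 8 genes that passed the filter only through the Hoxb6-high libraries had to differ. For these (Osr2, Nts, Slc51a, Defb37, Vnn1, Acaa1b, Abca12 and Slc10a2) the signs and the counts of calls are a description and no measure of strength. Osr2 was called in all 21, Nts in 19, Hoxb8 in 18, Slc51a and Hoxb7 in 17, 2210407C18Rik in 16, Reg3g in 15, Vnn1 in 15 of the 20 that tested it, and Defb37, Acaa1b and Car8 in 14. Adamdec1 was called in 11, Hoxb5 and Abca12 in 10, Hoxb4, Slc10a2 and Aldh1a1 in 9 and Cyp4b1 and Nupr1 in 8.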

How the data were processed

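Total RNA from frozen intestine of 8 mice was taken with Trizol and made into libraries with an Illumina TruSeq kit, per the labels' protocols. DESeq2 1.10.1, HTSeq 0.6.0, STAR 2.5.1b and CASAVA are named, without their roles, per the submitters' processing notes. No source used here names the genome build, the annotation or the use of strand. What the authors deposited were FPKM values for 49585 gene identifiers, read counts per library and mapped reads in percent. Symbols came from GENCODE M21 (GRCm38) for 49326 identifiers, and 259 had none.

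The members, the gene lists and the genes to name were chosen with earlier results of these data known. A library was Hoxb6-high above 20 FPKM. Values were tested as log2(FPKM + 0.5), which understates changes of low genes, with limma 3.58.1 in R 4.3.3 (trend, recipient group as covariate, two-sided, Benjamini-Hochberg over 16864 genes with a mean of at least 0.5 FPKM). The design also fitted the interaction with recipient group. The script was checked on simulated data. For 26962 of the 26963 genes that were above 0 in 2 or more libraries, the deposited values came out as whole multiples of 1 read (relative tolerance 1e-11). These reads, 15375480 to 20953595 per library, cover counting error only and fed limma's voom as an alternative. P-values measure the spread between single mice.

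The rule for named genes took the 15 largest called rises with no overlap, the 15 falls of smallest p with no overlap (none was called), Hox genes, cell type markers, and of each list up to 6 called members or, where fewer than 2 were called, the 2 of highest mean level; the text gives those that its comparisons turn on. Genes outside this rule are marked as chosen after their values were seen. Alternatives changed the pseudocount, filter, scaling, covariates, weights, tool and libraries used. A smaller deposited table of FPKM values was not used.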

Additional observations from a re-analysis of the deposited data

Results flagged for a closer look

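Among the 6 libraries below the Hoxb6 threshold, 72 genes named in the report or followed with it were checked for a library far from the rest on the log2(FPKM + 0.5) scale (Dixon's critical value of 0.625 for 6 samples), which chance passes in about 1 of 20 groups. 2 genes passed. Reg3g was 2.82 FPKM in Klebsiella mouse 4 and at most 0.568 FPKM in the other 5, a gap of 0.685 of the range. Reg4, a lectin of goblet and enteroendocrine cells, was 175 FPKM in Klebsiella mouse 2 and at least 600 FPKM in the other 5, a gap of 0.674 of the range. Their part in the comparison was not tested.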

How the results depend on the processing

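Against the 19 calls, 7 were made with a pseudocount of 0.1 FPKM, 3 with the log2 Hoxd13 level as a covariate, 6 without the 2 libraries of high Ctrb1 and 53 by voom on recovered reads. Leaving out each library in turn gave 2 to 25. No filter gave 28, 13 of the 19 among them, and the replicate block gave 5. The settings not named here gave 18 to 21. The interaction gave 391 calls with no filter on low values, and 0 in each other setting it was run under. The genes past 2-fold in both recipient groups were 179 in all and 296 with a pseudocount of 0.1 FPKM. They were 130 with a pseudocount of 1 FPKM and 147 with a filter at a mean of 1 FPKM. Without each of the other 6 libraries they were 171 to 221. Of 1509 values of 72 genes, 144 lost and 22 gained a call. The sign turned for Fabp6 (0.40 with the Hoxd13 covariate, 0.10 with the replicate block, and −0.95 to 0.54 over the fits without a library, 0.54 being without Klebsiella mouse 3) and for Pyy (0.02 with the Hoxd13 covariate). List medians moved by more than the median standard error of their members in 26 cases and by less in 814. The causes were not tested. Genes with a mean under 0.5 FPKM were not tested.

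The labels give nothing but the number to pair mice across the recipient groups. The deviations of same-numbered mice correlated at 0.19, −0.10, −0.06 and −0.16 (mice 1 to 4). Those of different-numbered mice ran from −0.31 (Klebsiella mouse 3 with Lactobacillus mouse 1) to 0.19 (Klebsiella mouse 3 with Lactobacillus mouse 4). Whether same-numbered mice share more than a number was not tested. With the replicate block 5 genes were called, 1 higher and 4 lower, 1 of the 19 among them.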

Other observations

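Another 66 genes had both Hoxb6-high libraries outside the range of the others and a difference past 2-fold within each recipient group without passing the test, 61 of them higher and 5 lower. They were chosen after their values were seen. For 44 of the 61, Klebsiella mouse 2 was the highest of the other 6 libraries, as it was for 8 of the 19 called genes and for Hoxb6. Examples are Sptssb, a subunit of sphingolipid synthesis (77.6 and 59.1 FPKM against 0.973 to 18.5 FPKM), Ggt1, which breaks down glutathione (7.26 and 5.75 FPKM against 0.199 to 1.38 FPKM), and Slc13a1, a sulphate transporter (6.26 and 3.20 FPKM against 0.283 to 2.08 FPKM).

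Of the 137 genes past 2-fold higher in both recipient groups, 24 were immunoglobulin or T cell receptor segments. That is 10.3% of the 234 such segments tested, against 0.812% of all genes tested. Such segments were also 5 of the 6 genes with the smallest p of the limma interaction term, which looks for unlike differences in the recipient groups. The filter took the mean over all libraries, so a segment high in few of them could pass it. Whether the segments followed the split was not tested. Of the 42 genes lower in both (0.249% of all genes tested), 12 were pancreatic acinar genes, which were high in Klebsiella mouse 2 and Lactobacillus mouse 3 (mean log2 level 6.67 and 5.25) and 0.98 to 1.84 in the other 4 libraries below the Hoxb6 threshold.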
